A study of Mus musculus with 3 samples.

Results

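Integrins are cell surface receptors made of 1 alpha and 1 beta chain, and laminins are basement membrane proteins made of 1 alpha, 1 beta and 1 gamma chain. The genes of these chains were followed in mouse embryonic trunks. Members were all genes whose symbol is Itga or Itgb with a number or letter, or Lama, Lamb or Lamc with a number. This gave 37 of the 33696 genes in the files, namely 18 integrin alpha chains, 8 integrin beta chains and 11 laminin chains. Itga2b was kept, since the letter belongs to the chain's name, and related genes that encode no classical chain, such as Itgbl1, Itgb2l and Itgb1bp1, were left out.

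The series holds 1 single-cell RNA library for each of the embryonic days E11.5, E12.5 and E13.5. Each was prepared on the 10x Genomics platform, which reads the 3′ ends of transcripts, from trunk tissue spanning cervical to upper thoracic levels without forelimbs and thoracic organs, and each pooled cells of 3 littermates. The labels give no genotype, strain, sex or treatment, and all stages were untreated tissue as far as the labels say. With 1 library a stage there is no replicate spread, so no test was made, and every interval given is a 95% interval for counting error only.

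Cells with at least 4000 UMIs (unique molecular identifiers, 1 per captured RNA molecule) numbered 6109, 6017 and 6942 after filtering, with median depths of 12320, 10953 and 10176 UMIs. Whole clusters were named "-like" where at least 3 markers of a class were 2-fold higher and found in 5% of their cells. These markers were not always among the leading genes of the cluster. The members took no part in the clustering. Libraries differed in ways other than stage. The estimated share of free RNA among a cell's UMIs was 5.05%, 12.52% and 22.6% in order of stage. Xist was found in 65.3%, 26.8% and 95.2% of cells and Y-linked genes in 29.8%, 60.6% and 2.49%. In 13 of 36 clusters a single library gave over 90% of the cells. Pairs of libraries shared 9 to 16 cell barcodes.

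Laminin alpha chains set which receptors a basement membrane engages, and laminins polymerise into a sheet to which nidogen, perlecan and type IV collagen are joined. Itgb1 pairs with many alpha chains, among them the laminin receptor chains Itga3, Itga6 and Itga7, the collagen receptor chains Itga1, Itga2, Itga10 and Itga11 and the fibronectin receptor chains Itga4, Itga5 and Itga8. Itgav pairs with Itgb1, Itgb3, Itgb5, Itgb6 and Itgb8, Itga6 also pairs with Itgb4 in the hemidesmosomes of epithelia, and Itgal, Itgam, Itgad and Itgax pair with the leukocyte chain Itgb2. In embryonic trunks these genes are known for the attachment of epidermis, the basement membranes of muscle, vessels and neural tube, and the migration of neural crest and blood cells.

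Levels are given as CPM, the UMIs of a gene per 1000000 UMIs of all cells of a class in 1 library, and are compared within a gene. Of the 37 members, 20 reached 30 CPM and 30 UMIs in a named class of at least 50 cells. Of the other 17, Itgad had 1, 1 and 3 UMIs in all cells of the 3 libraries and Itgax 3, 3 and 5. Itga2b stood at 1.11, 3.26 and 2.48 CPM in cells and at 1.22, 4.60 and 3.26 CPM in droplets without a cell, and Itgae at 1.34, 1.16 and 0.887 CPM against 1.22, 1.57 and 0.939 CPM. For these 2 chains the level in cells was thus no clear step above that of free RNA. For comparison, Itgb1 stood at 125.5, 158.6 and 187.3 CPM in cells and at 27.1, 35.2 and 44.4 CPM in the same droplets.

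**Figure D1:**
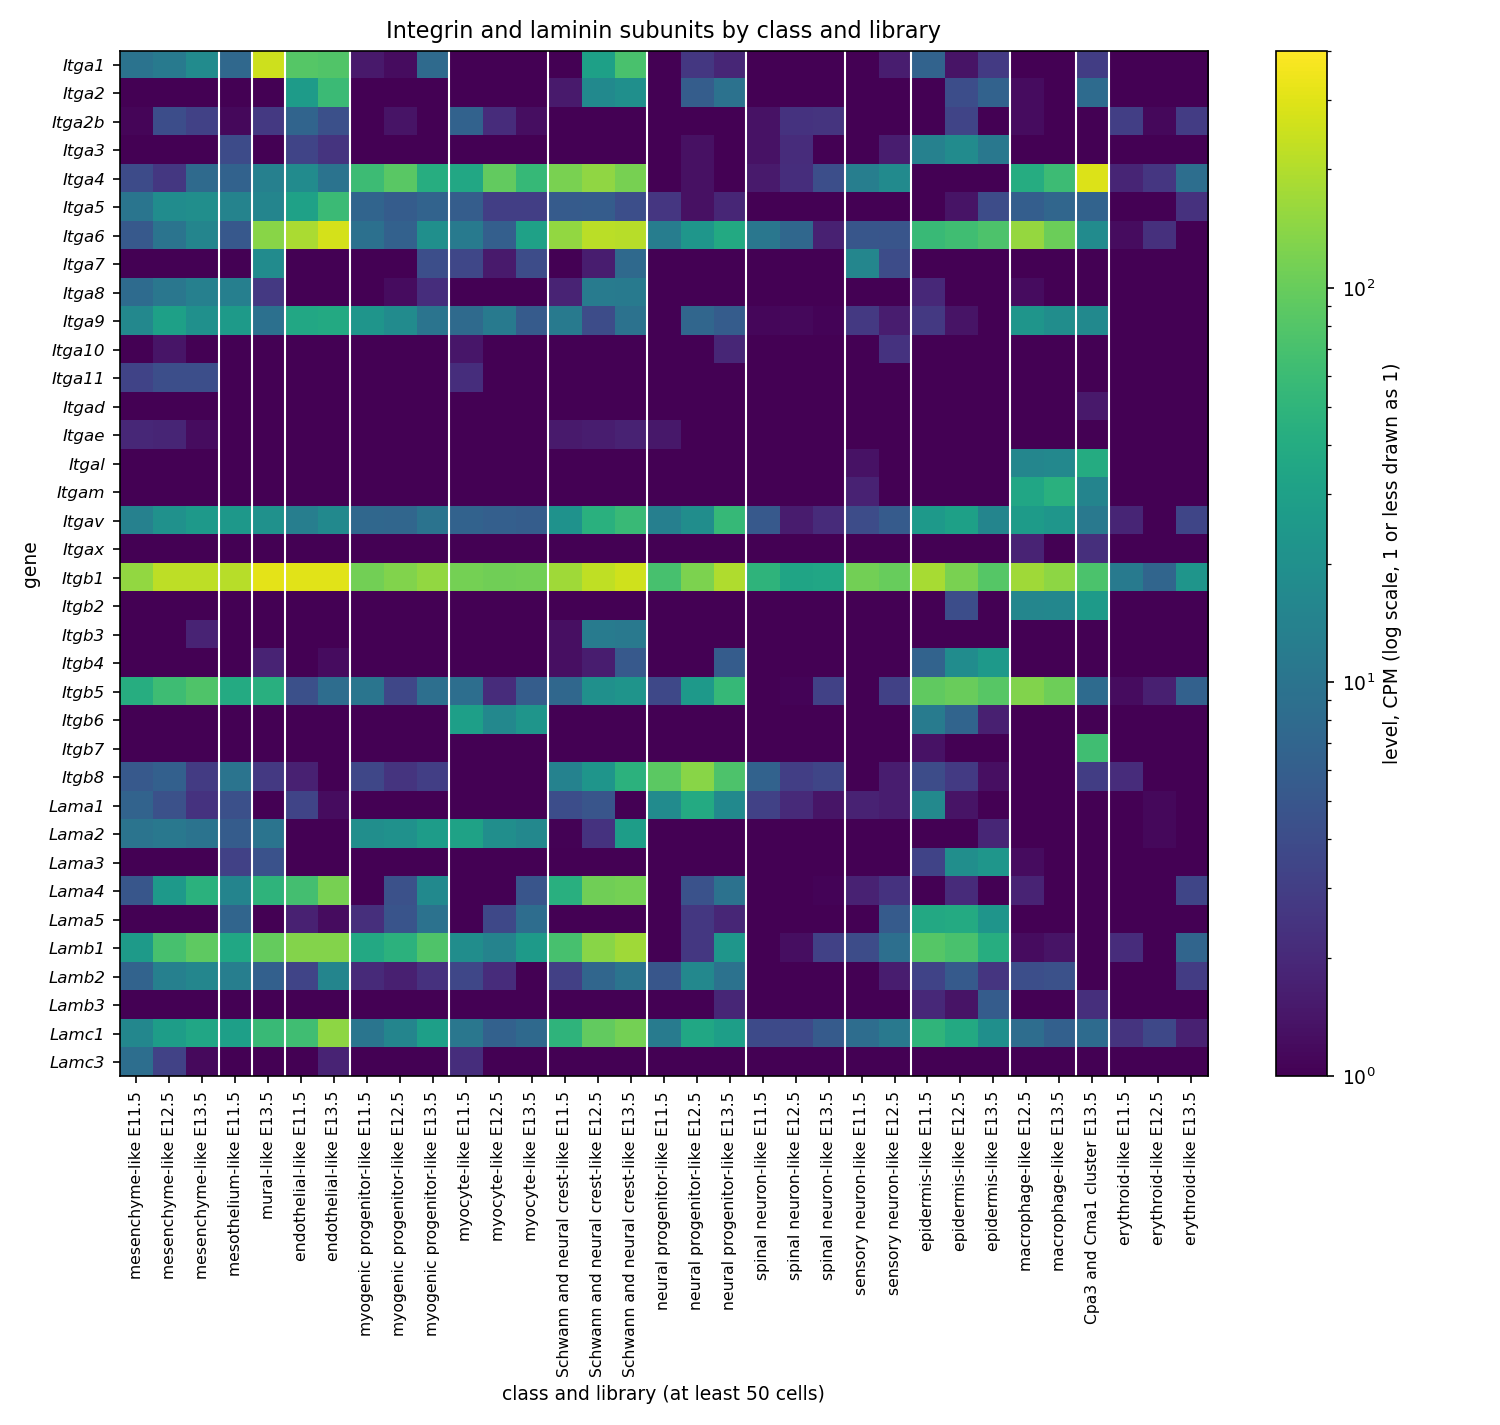
Level of the members reported here (rows) in each class and library with at least 50 cells (columns), as CPM on a log colour scale; levels of 1 CPM or less share the darkest colour. Itgb1 is seen in nearly every column, while Itgb8 is brightest in neural progenitor-like cells, Itgb6 in myocyte-like cells, Itgb7 in the Cpa3 and Cma1 cluster and Itga1 in mural-like cells.

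The class counts that follow are members at 2-fold or more the level of all other cells of the same library, in every library with at least 50 cells of the class. Such a count describes the classes, and beside it stands the share of all tested genes that met the same rule.

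In epidermis-like cells 5 of 29 members tested met the rule, against 3.13% of all genes. They are the chains of the epidermal anchoring receptors, Itga3, Itga6 and Itgb4, and the epithelial laminin chains Lama3 and Lama5. Itgb4, the hemidesmosome chain, was at 6.70, 18.6 and 25.3 CPM in order of stage, against at most 0.903 CPM in the other cells. Lama3 was at 3.35, 19.3 and 23.0 CPM, against at most 0.314 CPM in the pooled other cells of a library. Mesothelium-like cells at E11.5, described below, had a Lama3 level close to that of epidermis-like cells. In epidermis-like cells both Itgb4 and Lama3 were lowest at E11.5 and several times higher at the later stages. Itga3 was at 14.1, 17.9 and 11.0 CPM and Lama5 at 36.9, 38.6 and 22.8 CPM, so each was lowest at E13.5. Itga6 differed less between stages, at 58.3, 64.1 and 74.5 CPM.

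Between E11.5 and E12.5, 2 of 11 members tested in epidermis-like cells were 2-fold higher (4.29% of all genes) and 1 was 2-fold lower (5.69% of all genes). The log2 ratio of Lama3 was 2.53, with an interval of 1.14 to 4.26, and that of Itgb4 was 1.47 (0.38 to 2.69). These ratios rest on 5 to 28 UMIs a library. Lamb3 had 3, 2 and 27 UMIs, or 2.01, 1.38 and 5.70 CPM. From E12.5 to E13.5, 0 of 12 members were 2-fold higher and 0 lower, where 2.73% and 6.63% of all genes were. Itgb1 was at 184, 121 and 82.1 CPM, Lamb1 at 81.7, 72.4 and 41.8 CPM and Lamc1 at 50.9, 37.9 and 19.8 CPM, all highest at E11.5 and lowest at E13.5. The intervals of their second ratios lay below 0, at -0.56 (-0.82 to -0.29), -0.79 (-1.14 to -0.44) and -0.93 (-1.43 to -0.43), short of 2-fold.

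**Figure D2:**
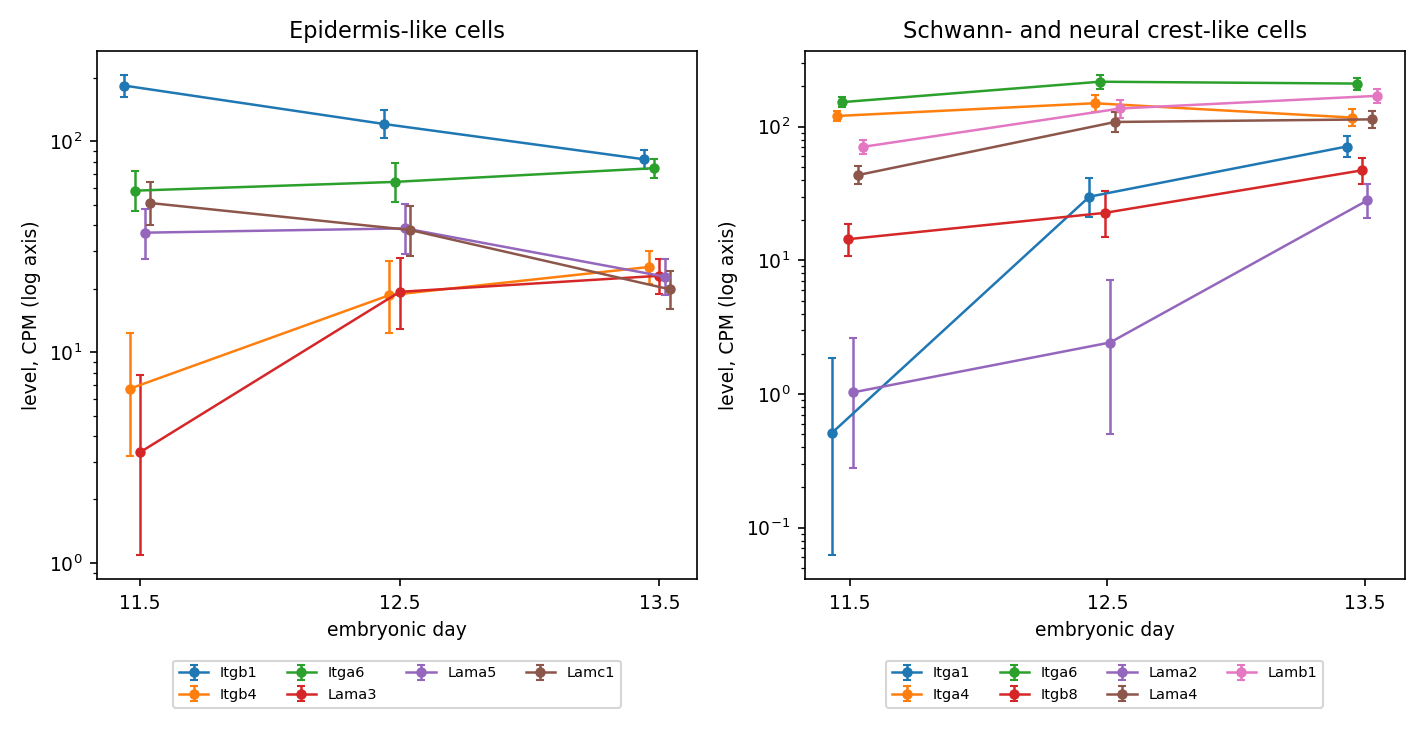
Levels in CPM (log axis) by embryonic day in epidermis-like cells (left) and Schwann- and neural crest-like cells (right), with exact Poisson 95% intervals and 1 library a stage. In epidermis-like cells Lama3 and Itgb4 were lowest at E11.5 while Itgb1 and Lamc1 were highest there; in Schwann- and neural crest-like cells Itga1 went from 0.513 to 71.0 CPM.

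Single epidermis-like cells held UMIs of both Itga6 and Itgb4 in 6.33%, 16.8% and 21.5% of cells, and in 0, 3.16% and 4.17% once each cell was thinned to 4000 UMIs. For the 79 cells at E11.5 the exact interval of 0 reaches 4.56%. Erythroid-like cells, which should lack these chains, gave 0 cells with both in every library. At the thinned depth the shares for E12.5 and E13.5 differed by less than their intervals (0.656% to 8.95% and 2.17% to 7.17%).

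Schwann- and neural crest-like cells, marked by Sox10, Foxd3 and Erbb3, had 6 of 29 members at 2-fold or more the other cells in all 3 libraries, against 2.59% of all genes. These were the receptor chains Itga2, Itga4 and Itga6 and the laminin chains Lama4, Lamb1 and Lamc1. Itga6 was at 153, 217 and 209.9 CPM, where the other cells had 13.2, 16.2 and 30.5 CPM. Itga4, a receptor chain for fibronectin and Vcam1 that migrating neural crest carries, was at 120.2, 149.6 and 117 CPM against 9.16, 16.2 and 19.8 CPM. All 3 libraries were thus several times above their other cells for both chains. Itga2 was at 1.54, 17.0 and 19.7 CPM, with an interval at E11.5 (-0.01 to 2.74) that reaches below 0. Lama4 was at 43.4, 108 and 113 CPM, Lamb1 at 70.6, 137 and 170.0 CPM and Lamc1 at 49.8, 93.8 and 116 CPM, all lowest at E11.5. UMIs of both Itga6 and Itgb1 were found in 87.6%, 80.5% and 60.5% of cells at median depths of 24989, 13603 and 9681 UMIs, and in 24.2%, 26.0% and 36.1% of cells at 4000 UMIs. The lower share at later stages was thus not seen at 4000 UMIs. There the intervals overlapped (17.6% to 31.8%, 16.6% to 37.2% and 28.3% to 44.4%), so the stages could not be ordered. In erythroid-like cells at 4000 UMIs, 0 cells had both.

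From E11.5 to E12.5, 4 of 11 members in Schwann- and neural crest-like cells were 2-fold higher (7.32% of all genes) and 1 lower (3.2% of all genes). The collagen receptor chain Itga1 was at 0.513 CPM, 2 UMIs, and then at 29.9 CPM, a log2 ratio of 5.86 (3.91 to 8.96). Lama4 was higher by 1.32 (0.98 to 1.66), Itgb5 by 1.44 (0.61 to 2.26) and Itgav by 1.06 (0.54 to 1.57). Itga9, a receptor chain for tenascin, was at 11.8 and then 4.04 CPM, a ratio of -1.55 (-3.24 to -0.22). From E12.5 to E13.5, 3 of 14 were higher (3.02%) and 0 lower (2.25%). Itga1 reached 71.0 CPM, a further 1.25 (0.70 to 1.82). Lama2, the alpha chain of muscle and nerve basement membranes, went from 2.43 to 28.0 CPM, a ratio of 3.53 (1.90 to 5.86), and Itgb8 from 22.6 to 47.1 CPM, a ratio of 1.06 (0.42 to 1.73). Markers of mesenchyme moved with these values. All 7 of the mesenchyme list (Pdgfra, Prrx1, Twist1, Col1a1, Col1a2, Col3a1 and Pdgfrb) had UMIs in this class in every library, and their summed level was 299, 853 and 2164 CPM, where droplets without a cell had 507, 970 and 1679 CPM and mesenchyme-like cells 2374, 5196 and 9511 CPM. Their part in the stage ratios was not tested. The level of Itga1 in mesenchyme-like cells was 9.82, 11.7 and 18.2 CPM and that of Lama2 10.0, 11.0 and 9.74 CPM, below the Schwann- and neural crest-like levels of E13.5.

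Endothelial-like cells, marked by Cdh5, Pecam1 and Kdr, were numerous enough at E11.5 (54 cells) and E13.5 (75 cells). There 8 of 30 members met the rule, where 6.1% of all genes did. Itga6 was at 189 and 274 CPM, Itga1 at 82.0 and 79.4 CPM, Itga2 at 26.8 and 59.9 CPM and Itga5, the fibronectin receptor chain, at 31.1 and 59.3 CPM. Itga9 was at 36.3 and 38.5 CPM. Of laminin chains, Lama4, an alpha chain of vessels, was at 67.4 and 117 CPM and Lamc1 at 63.0 and 146 CPM. Itga3 also met the rule but with 4 UMIs in each library and intervals that reach below 0 (-0.22 to 3.09 and -0.40 to 2.94). Itgb1 was at 305 and 304 CPM in these cells. UMIs of all of Lama4, Lamb1 and Lamc1 were in 31.5% and 42.7% of endothelial-like cells, and in 3.70% and 6.67% at 4000 UMIs; in erythroid-like cells they were in 0.813%, 0 and 0% at full depth and in 0 cells when thinned.

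Mural-like cells, the pericytes and smooth muscle of vessel walls marked by Rgs5, Kcnj8 and Abcc9, numbered 66 at E13.5 and under 50 in the other libraries. There 4 of 35 members met the rule, against 4.82% of all genes. Itga1 was at 252 CPM against 15.6 CPM in the other cells, the highest level of this chain in a class with at least 50 cells of a library. Itga6 was at 137 against 32.8 CPM and Itga7, a laminin receptor chain of smooth and skeletal muscle, at 18.1 against 0.887 CPM. Lama3 had 5 UMIs there and an interval that reaches below 0 (-0.15 to 2.76). UMIs of both Itga1 and Itgb1 were in 71.2% of mural-like cells and in 33.3% at 4000 UMIs, against 0.763% and 0 of erythroid-like cells.

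Muscle precursors shared Itga4 with neural crest. Myogenic progenitor-like cells, marked by Pax7, Myf5 and Msc, had 2 of 29 members at 2-fold or more the other cells (0.891% of all genes), Itga4 and Lama2. Itga4 was at 61.3, 85.8 and 41.6 CPM against 11.0, 12.1 and 20.0 CPM, so the distance to the other cells was smallest at E13.5. Lama2 was at 19.4, 21.0 and 27.6 CPM against at most 8.48 CPM. Myocyte-like cells, marked by Myog, Acta1 and Mylpf, had 3 of 29 (3.32% of all genes), namely Itga4, Itga7 and Itgb6. Itgb6, better known from epithelia as a partner of Itgav, was at 29.7, 16.5 and 22.7 CPM in myocyte-like cells and at most 0.246 CPM in the other cells of a library. Myogenic progenitor-like cells had 0.559, 0.462 and 0.584 CPM of Itgb6, and epidermis-like cells 12.1, 6.90 and 1.69 CPM. Its level was thus set apart between the muscle classes in all 3 libraries. Itgav was at 6.52, 6.13 and 5.81 CPM in myocyte-like cells, and 5 cells in each library held UMIs of both. Itga7 in myocyte-like cells rested on 5, 5 and 16 UMIs, at 3.62, 1.53 and 4.04 CPM.

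In myogenic progenitor-like cells 2 of 13 members were 2-fold higher at E12.5 than at E11.5 (3.16% of all genes) and 1 lower (3.65% of all genes). At E13.5 against E12.5, 5 of 15 were higher (2.29%) and 1 lower (3%). The median log2 ratio of the members in this second step was 0.69, that of all genes -0.05. Lama4 was at 0.746, 4.47 and 17.4 CPM, higher by 2.58 (1.07 to 4.55) and then by 1.96 (1.36 to 2.60). Lama5 was at 2.24, 4.78 and 9.49 CPM, with ratios of 1.09 (0.09 to 2.19) and 0.99 (0.35 to 1.66). Both laminin alpha chains thus had their lowest level at E11.5 and their highest at E13.5, and Lama2 stayed within a narrower range. All 7 mesenchyme markers had UMIs in this class in every library, with a summed level of 511, 445 and 900.4 CPM, so they too were highest at E13.5. Col3a1 was at 134, 160.1 and 452 CPM and Col1a1 at 62.1, 35.7 and 136 CPM, while Pdgfrb was at 12.3, 7.86 and 2.48 CPM. Their part in the ratios was not tested.

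Among receptor chains of the same cells, Itga7 had 1, 1 and 29 UMIs in order of stage, or 4.23 CPM in the last, a last ratio of 4.78 (2.19 to 10.13). Itga1 was at 1.49, 1.23 and 8.03 CPM, a last ratio of 2.70 (1.63 to 3.98). Itga6 was at 9.13, 6.47 and 19.7 CPM, a last ratio of 1.61 (1.10 to 2.14). These 3 chains stood highest at E13.5, while Itga4 was lowest there, with a last ratio of -1.04 (-1.26 to -0.84), or -0.92 after subtracting the estimated free RNA. Itgb5 was at 10.3, 3.54 and 8.90 CPM, with ratios of -1.53 (-2.30 to -0.81) and 1.33 (0.62 to 2.09). The second was -0.08 when each cell was thinned to 4000 UMIs. Droplets without a cell had 6.79, 12.47 and 19.4 CPM of Itgb5, above this class in both later libraries.

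**Figure D3:**
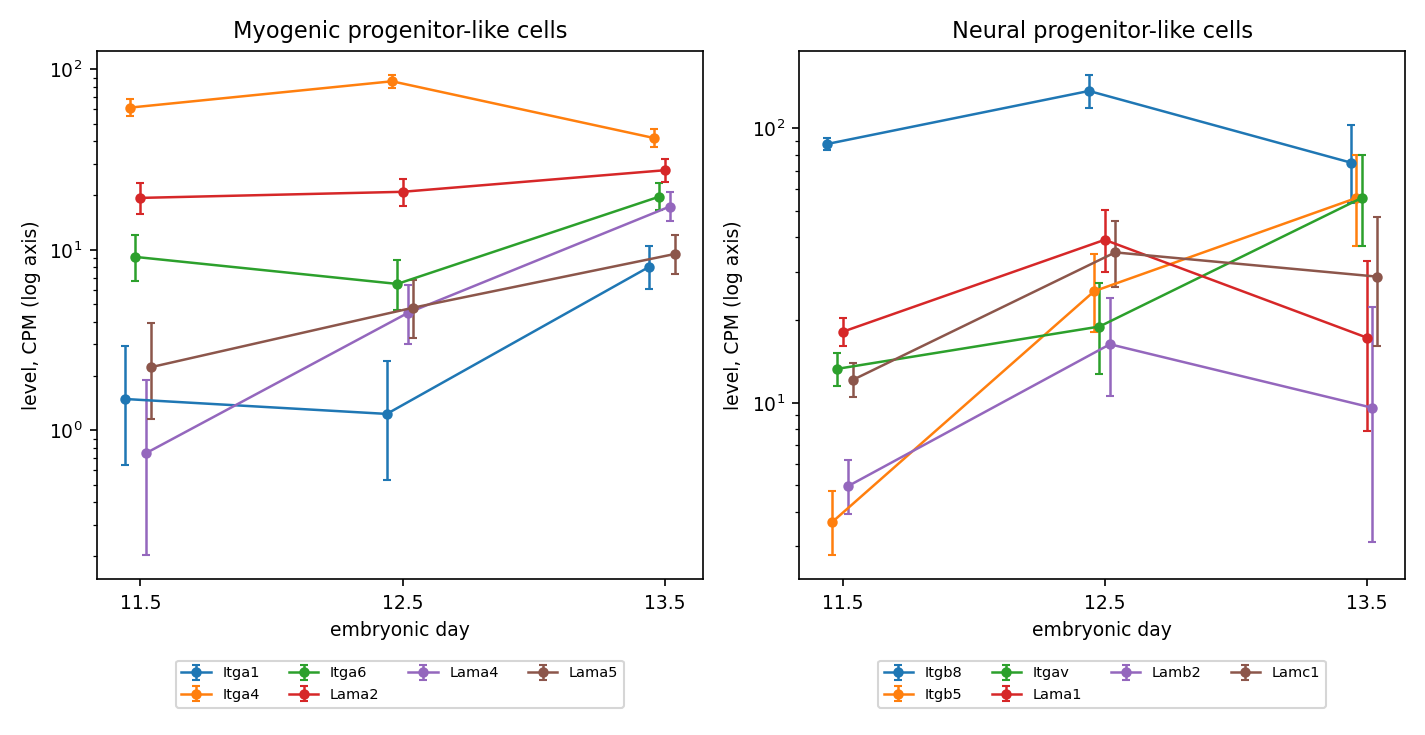
Levels in CPM (log axis) by embryonic day in myogenic progenitor-like cells (left) and neural progenitor-like cells (right), with exact Poisson 95% intervals and 1 library a stage. In myogenic progenitor-like cells Lama4 went from 0.746 to 17.4 CPM while Itga4 was lowest at E13.5; in neural progenitor-like cells Itgb8 was highest at E12.5 and Itgb5 went from 3.68 to 55.6 CPM.

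Neural progenitor-like cells of the spinal cord, marked by Sox2, Pax6 and Sox1, had 2 of 29 members at 2-fold or more the other cells (2.44% of all genes). They are Itgb8, a beta chain that pairs with Itgav, and Lama1, the alpha chain of early embryonic basement membranes. Itgb8 was at 87.5, 136.5 and 74.8 CPM, against 6.48, 7.67 and 3.55 CPM in the other cells. Lama1 was at 18.1, 39.2 and 17.3 CPM against 5.12, 5.29 and 1.70 CPM. Every library was far above its other cells for Itgb8, and E12.5 was the highest for both genes. Spinal neuron-like cells had 6.54, 3.01 and 3.51 CPM of Itgb8, and 0 of 29 members met the rule there, where 1732 of 15038 genes did. Itgb1 stood at 48.7, 32.7 and 34.4 CPM in these neurons. UMIs of both Itgav and Itgb8 were in 9.08% and 14.1% of neural progenitor-like cells at E11.5 and E12.5 and in 8 of 64 at E13.5, and in 1.68%, 3.70% and 6.25% at 4000 UMIs, against at most 0.813% of erythroid-like cells at full depth and 0 when thinned.

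From E11.5 to E12.5, 4 of 9 members tested in neural progenitor-like cells were 2-fold higher (13.8% of all genes) and 0 lower (6.17%). From E12.5 to E13.5, 2 of 8 were higher (2.99%) and 1 lower (6.64%). Itgb5 was at 3.68, 25.5 and 55.6 CPM, with ratios of 2.79 (2.17 to 3.41) and 1.13 (0.38 to 1.86). Lamb2 was at 4.97, 16.3 and 9.59 CPM and Lamc1 at 12.1, 35.3 and 28.8 CPM, with first ratios of 1.72 (1.004 to 2.38) and 1.54 (1.08 to 1.98). Lama1 had ratios of 1.11 (0.69 to 1.52) and -1.18 (-2.38 to -0.16). Itgav was at 13.3, 18.9 and 55.6 CPM, a last ratio of 1.55 (0.76 to 2.35).

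A further cluster with Sox2, Pax6 and Sox1 also raised was left unnamed, because markers of another class led it. Its 146, 443 and 18 cells in order of stage were counted among the other cells. At E12.5 it thus held more cells than the 135 of the named class, and its part in the values above was not tested. The neural progenitor-like class itself was not the same mix of clusters at each stage. Of its 1310 cells at E11.5, 887 were in a cluster led by Sox3, Ptf1a and Msx3 and 423 in one led by Fgfbp3, Mt3 and Dbx2. Of the later cells, 126 of 135 at E12.5 and all 64 at E13.5 were in the second. Within this second cluster the first-step ratios were 2.75 for Itgb5, 1.81 for Lamb2, 1.38 for Lamc1 and 0.77 for Lama1, so Lama1 alone of the 4 was no longer past 2-fold. Markers of mesenchyme also moved with stage in this class. All 7 had UMIs in each library, with a summed level of 22.3, 143 and 1197 CPM, and Itgb5 in droplets without a cell was at 6.79, 12.47 and 19.4 CPM, below the class in both later libraries. At E13.5 Pdgfra was at 74.8 CPM, where mesenchyme-like cells had 129 CPM and droplets without a cell 25.3 CPM. Pdgfrb was at 44.1 CPM, where these had 48.4 and 8.01 CPM. The remaining markers of the list were each below the droplets at E13.5. The part of mesenchyme markers in the ratios was not tested.

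Blood-derived cells held the leukocyte chains. Macrophage-like cells, marked by C1qa, C1qb and Csf1r, had 5 of 33 members at 2-fold or more the other cells at both E12.5 and E13.5 (9.95% of all genes). Itgam, a chain of the complement receptor, was at 34.4 and 44.8 CPM against 0.185 and 0.297 CPM. Itgb2 was at 15.7 and 15.9 CPM and Itgal at 15.7 and 16.2 CPM, each against less than 0.8 CPM in the pooled other cells. Those other cells included the Cpa3 and Cma1 cluster described below, which at E13.5 had 26.1 CPM of Itgb2 and 40.2 CPM of Itgal. In macrophage-like cells Itga6 was at 153 and 105 CPM and Itga4 at 41.1 and 60.4 CPM. Between these stages 0 of 11 members were 2-fold higher and 0 lower, where 2.33% and 1.81% of all genes were. Itgb5, with 129 and 107 CPM, was higher than in the mesenchyme-like cells of the same libraries (62.1 and 76.3 CPM).

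A cluster led by the mast cell proteases Cpa3 and Cma1, with 86 cells at E13.5 and fewer than 50 before, was left unnamed because antigen presentation and lymphocyte genes (H2-Aa, Cd74, Ptprcap and Ccl5) were also among its 10 leading genes. Of 35 members 7 met the rule (11.1% of all genes). Itga4 was at 291 CPM against 17.3 CPM, the highest level of this chain in a class with at least 50 cells of a library. Itgb7, its partner in gut-homing receptors of leukocytes, was at 63.3 against 0.138 CPM, a log2 ratio of 8.84 (7.93 to 9.90). Itgal was at 40.2 CPM, Itgb2 at 26.1 CPM, Itgam at 14.9 CPM and Itga2 at 8.19 CPM. Lamb3 also counted, with 3 UMIs and an interval that reaches below 0 (-1.02 to 2.89). UMIs of both Itga4 and Itgb7 were in 43 of these 86 cells (interval 39.0% to 61.0%) and in 12.8% at 4000 UMIs, against 0 of 131 erythroid-like cells. Erythroid-like cells themselves had 0 of 29 members past the rule (0.898% of all genes), with Itgb1 at 12.0, 7.10 and 22.7 CPM.

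The promoters of 23 members were found by symbol in a RefSeq table of promoters on GRCm38.p6, a build other than that of the files, 26 promoters in all. They were searched on both strands for GAGGAA, a core motif of the myeloid factor PU.1, for CAGCTG, an E-box bound by myogenic factors, and for TGANTCA, an AP-1 site. These letters occur in 28.3%, 16.3% and 7.81% of the 32851 promoters of that table. Itgam is shown because its log2 ratio to the other cells was the largest among members in macrophage-like cells (chr7:128062390-128062689, plus strand, 250 bases before to 50 after the start) and Itga4 because it was high in muscle precursors, neural crest and leukocytes (chr2:79255176-79255475, plus strand). Capitals mark GAGGAA or its reverse complement in the first, with 3 matches, and CAGCTG in the second, with 1 match. The Itga4 promoter had 0 matches of GAGGAA and the Itgam promoter 0 of CAGCTG. Promoters of laminin chains such as Lamb1 and Lama2 also held GAGGAA, and that of the leukocyte chain Itgax did not. A match is a description of these letters only.
Itgam: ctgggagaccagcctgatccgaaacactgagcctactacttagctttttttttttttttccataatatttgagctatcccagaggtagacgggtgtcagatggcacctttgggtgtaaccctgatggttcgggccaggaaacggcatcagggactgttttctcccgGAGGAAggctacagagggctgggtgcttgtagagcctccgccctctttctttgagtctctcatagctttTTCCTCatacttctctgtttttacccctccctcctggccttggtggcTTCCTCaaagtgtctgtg
Itga4: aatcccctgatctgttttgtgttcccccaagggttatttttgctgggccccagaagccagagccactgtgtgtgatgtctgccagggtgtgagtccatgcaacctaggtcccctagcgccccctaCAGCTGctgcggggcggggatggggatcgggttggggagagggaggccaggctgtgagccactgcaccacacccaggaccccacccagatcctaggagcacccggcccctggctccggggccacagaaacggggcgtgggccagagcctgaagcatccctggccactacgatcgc

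Sensory neuron-like cells, marked by Isl1, Pou4f1 and Prdm12, had 1 of 29 members past the rule at E11.5 and E12.5 (6.21% of all genes). Itga7 was at 15.6 and 4.01 CPM against 0.189 and 0.368 CPM, on 35 and 5 UMIs. Mesothelium-like cells, the epithelial lining of the body cavities marked by Upk3b and Wt1, had 503 cells at E11.5 and fewer than 50 later. Of 30 members 10 met the rule there (7.62% of all genes). Lama3 was at 3.16 against 0.0760 CPM, Lama5 at 7.09 against 1.36 CPM, Itga3 at 3.92 against 0.823 CPM and Lamb2 at 12.9 against 4.24 CPM. The others were Itga5, Itga8, Itga9, Itgav, Itgb4 and Lama4, from 1.04 to 1.87 on the log2 scale, with Itgb4 on 7 UMIs. All 7 mesenchyme markers had UMIs in mesothelium-like cells. Their summed level was 3045 CPM, above the 2374 CPM of mesenchyme-like cells at E11.5. Their part in the count was not tested.

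Mesenchyme-like cells were the largest class, with 2200, 3052 and 4665 cells. The class pooled clusters named as a kind of mesenchyme and unnamed clusters with Pdgfra in at least 30% of cells. Of 29 members 5 met the rule (3.98% of all genes). Itgb5, a beta chain that pairs with Itgav in vitronectin receptors, was at 41.7, 62.1 and 76.3 CPM against 13.46, 16.3 and 33.9 CPM. Itga8, the receptor chain for nephronectin, was at 8.05, 10.7 and 13.7 CPM against at most 2.54 CPM, and the collagen receptor chain Itga11 at 3.37, 4.18 and 4.18 CPM against at most 0.497 CPM. Itga5 was at 10.2, 18.4 and 19.2 CPM. Lamc3 was at 8.81, 3.26 and 1.17 CPM against 1.39, 1.22 and 0.229 CPM. Meningeal-like cells gave 129, 112 and 40 of its 269, 127 and 59 UMIs in mesenchyme-like cells, and the remaining mesenchyme was at 4.70, 0.401 and 0.385 CPM, at E12.5 below the other cells. At E11.5 this remainder included a cluster of 224 cells with the meningeal markers Foxc1, Aldh1a2 and Zic1 raised. It was left unnamed because no marker was among its leading genes. At doubled clustering resolution the lowest log2 ratio of Lamc3 to the other cells was -1.16.

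From E11.5 to E12.5, 6 of 25 members in mesenchyme-like cells were 2-fold higher (13.4% of all genes) and 2 lower (2.01%). The median ratio of the members was 0.57 and that of all genes 0.16. Lama4 was at 5.01, 25.6 and 46.2 CPM, higher by 2.35 (2.10 to 2.61) and then by 0.85 (0.75 to 0.96). Lamb1 was at 26.1, 69.2 and 89.5 CPM, with ratios of 1.41 (1.29 to 1.53) and 0.37 (0.30 to 0.44), and Lamb2 at 6.81, 13.7 and 15.7 CPM, with a first ratio of 1.01 (0.77 to 1.25). Lamc1 was at 16.0, 27.8 and 35.1 CPM, short of 2-fold at each step. The chains Lama4, Lamb1 and Lamc1, which can form 1 laminin, thus stood in the same order of stages, and UMIs of all 3 were found in 0.864%, 5.11% and 8.15% of cells, or 0.0909%, 0.360% and 0.686% at 4000 UMIs. The other 3 members that were 2-fold higher were Itga2b at 1.08 and 4.08 CPM, Itga10 at 0.524 and 1.41 CPM and Itgb3 at 0.295 and 0.821 CPM. Droplets without a cell had 1.22 and 4.60 CPM of Itga2b, above the mesenchyme-like cells in both libraries. For Itga10 they had 0.348 and 0.242 CPM and for Itgb3 0.174 and 0.121 CPM. The 2 that were lower were Lama5 and Lamc3. Lama5 was at 0.753 and 0.257 CPM, a ratio of -1.55 (-2.79 to -0.43). Droplets without a cell had 0.522 and 0.363 CPM of Lama5, above the mesenchyme-like cells at E12.5. Lamc3 had a ratio of -1.43 (-1.75 to -1.12) that was 0.79 at doubled clustering resolution. Itgb1 was at 152, 220.5 and 219.7 CPM, Itgav at 14.0, 20.9 and 25.7 CPM and Itga9 at 16.5, 30.3 and 20.5 CPM.

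From E12.5 to E13.5, 3 of 28 members were 2-fold higher (3.72%) and 3 lower (4.23%). Itga4 was at 3.93, 2.64 and 7.96 CPM, a last ratio of 1.59 (1.27 to 1.92), with droplets without a cell at 3.48, 3.39 and 4.13 CPM. Itgb3 was at 1.82 CPM at E13.5, a ratio of 1.15 (0.55 to 1.78), where the droplets had 1.31 CPM. Lamb3 went from 0.0770 to 0.831 CPM, a ratio of 3.43 (1.79 to 5.77), and was at 0 and 0.313 CPM in the droplets and at 1.38 and 5.70 CPM in epidermis-like cells. After subtracting the estimated free RNA the ratios of Itga4, Itgb3 and Lamb3 were 1.83, 1.08 and 3.47. Downward, Itgb8 was at 6.29 and then 2.85 CPM, a ratio of -1.14 (-1.45 to -0.84), Lamc3 had -1.48 (-1.95 to -1.02) and Itga3 0.564 and 0.198 CPM. Droplets without a cell had 0.847 and 0.376 CPM of Itga3, above the mesenchyme-like cells in both libraries. The mix of mesenchyme clusters differed between stages. In the first step 91.3% of the later and 91.8% of the earlier cells lay in clusters held to over 90% by their own stage of the pair, and in the second step 43.2% and 13.9%. A difference within one kind of mesenchyme and a change of mix cannot be told apart there.

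**Figure D4:**
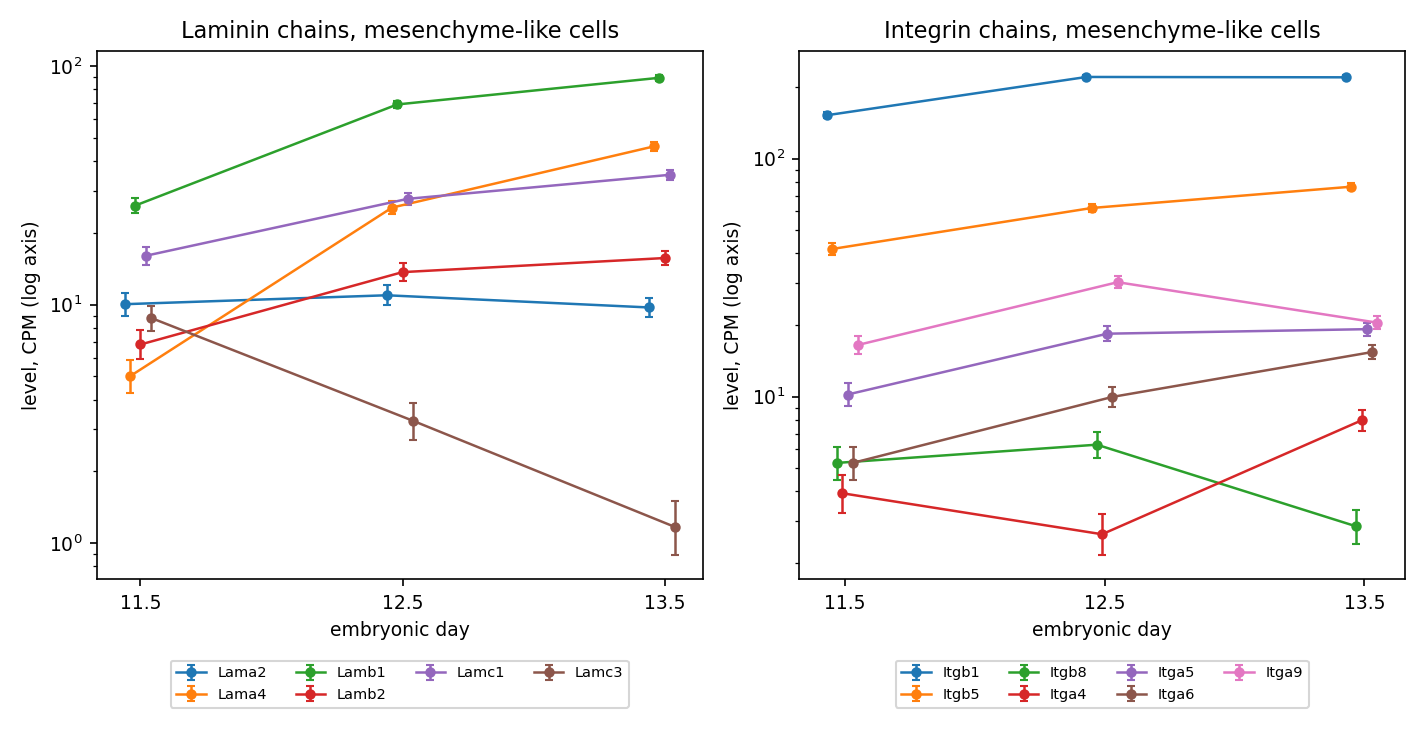
Levels in CPM (log axis) by embryonic day of laminin chains (left) and integrin chains (right) in mesenchyme-like cells, with exact Poisson 95% intervals and 1 library a stage. Lama4 went from 5.01 to 46.2 CPM and Lamb1 from 26.1 to 89.5 CPM, while Lamc3 went from 8.81 to 1.17 CPM.

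Among the 7 named kinds of mesenchyme with at least 50 cells, the most members met the rule in meningeal-like cells, marked by Foxc1, Aldh1a2 and Slc6a13, with 64, 124 and 95 cells. Meninges lie against the basement membrane that covers the spinal cord. Of 20 members 6 were at 2-fold or more the remaining mesenchyme in all 3 libraries, against 2.75% of all genes. At E11.5 the remaining mesenchyme included the 224 unnamed cells with meningeal markers described above. Lamc3, a gamma chain of meningeal basement membrane, was at 176, 71.6 and 32.5 CPM, against 4.70, 0.401 and 0.385 CPM. Lama1 was at 69.4, 69.7 and 31.7 CPM against 5.17, 1.66 and 1.66 CPM, and Lama2 at 84.4, 72.9 and 51.2 CPM against 8.22, 8.37 and 8.70 CPM. Lamb2 was at 13.6, 45.4 and 60.1 CPM against 6.64, 12.4 and 14.6 CPM, Lamc1 at 73.5, 97.2 and 105 CPM against 14.6, 24.9 and 33.3 CPM and Itga1 at 32.7, 39.6 and 56.9 CPM against 9.26, 10.5 and 17.2 CPM. Each interval of these ratios lay above 0 except that of Lamb2 at E11.5 (-0.05 to 1.94). The lowest Lamb2 ratio, 1.04, was -0.089 with the members among the variable genes of the clustering and 0.36 with cells thinned to 4000 UMIs, so its call did not hold. Itga11 was at 42.2, 15.3 and 4.06 CPM.

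Among laminin chains the meningeal-like cells did not move together. Lamc3 was lower at each step, with ratios of -1.29 (-1.67 to -0.92) and -1.14 (-1.70 to -0.61), and Lama1 was lower in the second, at -1.14 (-1.70 to -0.60). Lamb2 was higher in the first step, at 1.74 (0.77 to 2.86). Lama4 was at 23.1, 39.0 and 65.8 CPM. UMIs of both Lama2 and Lamc3 were in 48.4%, 29.8% and 12.6% of cells and in 18.8%, 4.84% and 4.21% at 4000 UMIs, against 0 erythroid-like cells. Without meningeal-like cells the second Lamc3 ratio of mesenchyme was -0.06 (-1.11 to 1.02) and the first -3.55 (-4.43 to -2.78), and Lama1 had -1.64 (-2.09 to -1.21) in the first. The first ratios still include the 224 unnamed E11.5 cells with meningeal markers, which had Lamc3 among their leading genes. They therefore do not describe mesenchyme free of such cells. Without sclerotome-like cells the Lamc3 ratios were -1.85 and -1.56.

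**Figure D5:**
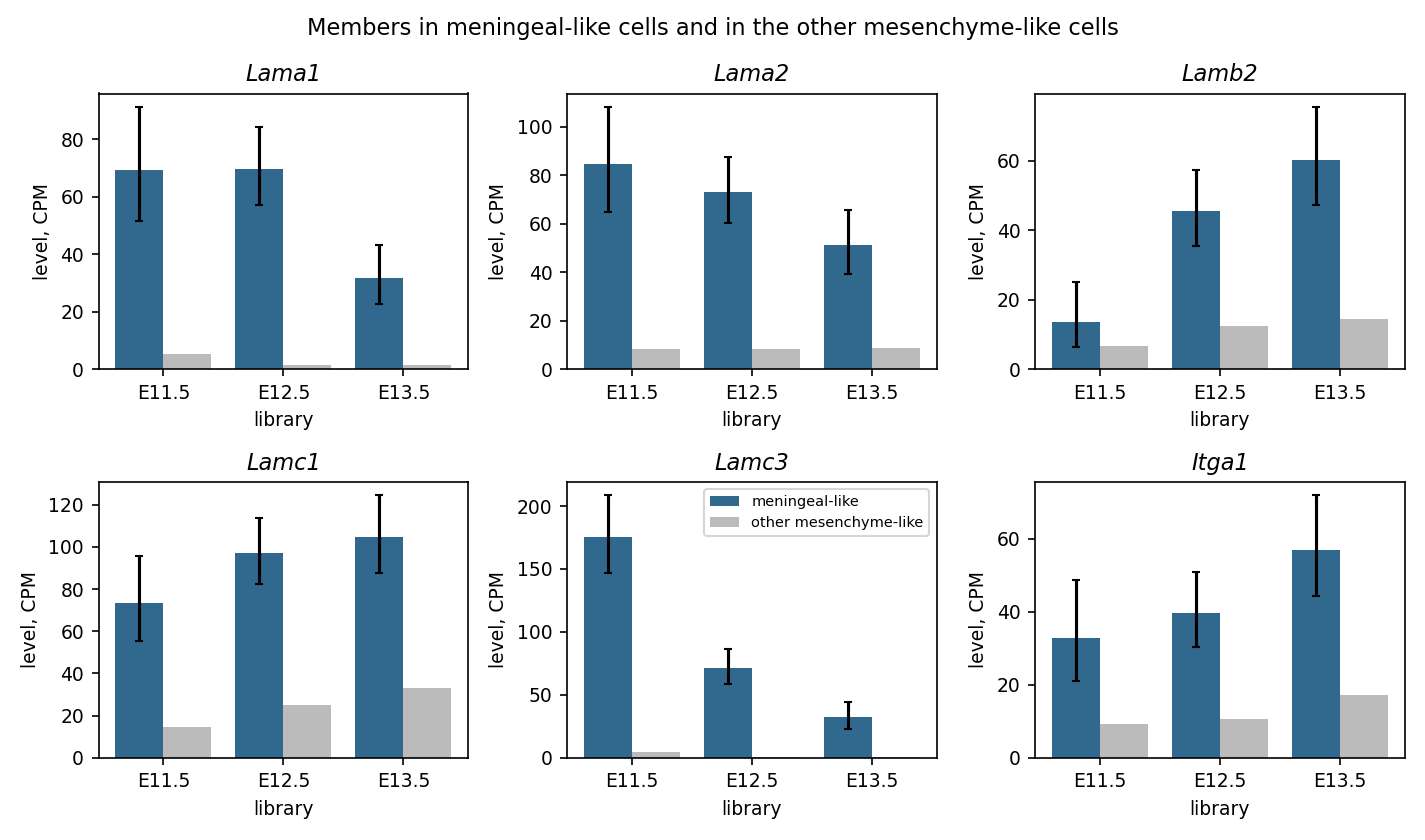
Level in CPM (bars from 0) of 6 members in meningeal-like cells, with exact Poisson 95% intervals, and in the remaining mesenchyme-like cells of the same library, drawn without intervals. Lamc3 went from 176 to 32.5 CPM over the stages and Lamb2 from 13.6 to 60.1 CPM.

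Other named kinds of mesenchyme stood out in few members. Chondrogenic-like cells, marked by Col2a1 and Acan, had 1 of 23 members past the rule at E12.5 and E13.5 (2.27% of all genes). This was Itga10, a collagen receptor chain of cartilage, at 5.57 and 8.82 CPM against 0.942 and 0.803 CPM, on 22 and 6 UMIs. Lateral plate-like cells, marked by Tbx5, Hand2 and Tbx4 and present with 77 cells at E12.5, had 2 of 23 (4.53%). Itga6 was at 45.6 against 8.86 CPM, and Itgb4 rested on 2 UMIs. Both were below the remaining mesenchyme when the UMI minimum was set per library, with ratios of -0.70 and -0.10. This lateral plate-like cluster was led by Fezf2, Pitx1 and Cnn1. Other clusters with Tbx5, Hand2, Emx2 and Osr1 raised were left unnamed, so its values do not stand for all lateral plate cells. The count was 0 of 20 in sclerotome-like cells (0.323%), 0 of 23 in tendon-like cells (0.617%), 0 of 24 in dermal-like cells (2.46%) and 0 of 24 in brown adipose precursor-like cells (2.24%). In brown adipose precursor-like cells at E13.5 Itgb5 was at 80.3 CPM, Lama4 at 48.1 CPM and Lamb1 at 91.9 CPM, and in dermal-like cells these were at 66.0, 49.9 and 77.3 CPM. Itga4 was at 12.8 CPM in dermal-like and 1.10 CPM in brown adipose precursor-like cells, and Itga8 at 21.0 and 5.10 CPM.

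Genes that work with the members were read from 4 lists. In mesenchyme-like cells from E11.5 to E12.5, 5 of 15 basement membrane partners of laminin were 2-fold higher and 1 lower (median ratio 0.69). For these lists too, 13.4% of all genes were 2-fold higher at this step and 2.01% lower. The 4 with the largest ratios were Smoc2 at 2.69, Sparc at 1.59, Nid2 at 1.27 and Smoc1 at 1.10. Of other ligands of integrins 8 of 18 tested were higher and 0 lower (median 0.85). The 4 were Egfl6 at 2.85, Fbln5 at 2.52, Col1a1 at 2.33, and Ibsp with 0 UMIs and then 2.57 CPM. Of other receptors of laminin 2 of 9 were higher, led by Cd9 at 1.88 and Sdc4 at 1.07, with Cd81 at 0.80 and Cd151 at 0.42 (median 0.37). Of genes of integrin activation and linkage to actin 2 of 18 were higher and 1 lower (median 0.42), with Lims2 at 1.84, Tln2 at 1.13, Rsu1 at 0.68 and Parvb at -1.25. From E12.5 to E13.5, 0, 2, 0 and 0 of these lists' genes were higher and 0, 3, 0 and 1 lower in the same order, with medians of at most 0.10.

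In Schwann- and neural crest-like cells from E11.5 to E12.5, where 7.32% of all genes were 2-fold higher, 7 of 10 basement membrane partners were (median 1.18), led by Nid1 at 1.33, Col4a2 at 1.32, Col4a1 at 1.31 and Agrn at 1.21. Of other ligands 4 of 8 were higher (median 0.83), Fbln5 with 0 UMIs and then 25.1 CPM, Col1a1 at 3.69, Tgfb2 at 1.60 and Ccn1 at 1.08. Cd9, a tetraspanin that binds integrins, was at 20.8 and 80.9 CPM, the 1 of 8 other receptors past 2-fold, and Lims2 the 1 of 15 linkage genes. In neural progenitor-like cells at the same step, where 13.8% of all genes were higher and 6.17% lower, 5 of 12 basement membrane partners were higher and 1 lower (median 0.69), with Sparc at 2.47, Nid1 at 2.04, Agrn at 1.45 and Smoc1 at -1.51. Of other ligands 6 of 9 were higher and 1 lower (median 1.72), with Vcam1 at 3.49, Tgfb2 at 3.20, Col1a1 at 3.05 and Thbs1 at 1.80. Of other receptors 2 of 8 and of linkage genes 3 of 16 were higher. Col1a1, a mesenchyme marker, was thus among the largest ratios in all 3 classes.

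Over 33 points, each a class in 1 library, the members whose levels ran most alike were Itgb1 with Lamc1 (Spearman's rho 0.85), Itgav with Itgb5 (0.83), Itga5 with Itga9 (0.83), Lamb1 with Lamc1 (0.82) and Itga2 with Itga6 (0.80). Points of 1 library share its depth and free RNA, and points of 1 class share its cells, so these values describe the profiles only.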

How the data were processed

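The deposited files hold raw UMI counts per gene and barcode, one matrix for each of 3 libraries. Per the submitters' processing notes the authors used Cell Ranger 8.0.1 and GRCm39; which gene annotation they used is not stated there. The whole matrices held 103383215, 94155624 and 113402193 UMIs. Barcodes with at least 4000 UMIs, at least 500 genes and at most 10% mitochondrial counts were kept, doublets were called per library with scrublet (182, 121 and 167 cells), and a further 22, 2 and 5 cells of doublet clusters were removed. Clustering used scanpy 1.11.5 with 3000 variable genes, 40 components and the Leiden method, without the members, haemoglobin, mitochondrial, ribosomal and sex-linked genes. A cluster was named where at least 3 markers of a class were 2-fold higher and found in 5% of its cells, unless markers of another class led it. Clusters named as a kind of mesenchyme, and unnamed ones with Pdgfra in at least 30% of cells, formed the mesenchyme-like class. Kinds within it were named from a second clustering, which also needed a marker among the 10 leading genes. Mural-like cells were moved out of mesenchyme, and the Cpa3 and Cma1 cluster was described unnamed, after the data were seen.

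Counts were summed per class and library. CPM has exact Poisson intervals, ratios have exact conditional binomial intervals and shares exact Clopper-Pearson intervals. They cover counting error only. A 2-fold difference needed 30 UMIs over both groups and 50 cells in each class and library. Free RNA was estimated from haemoglobin in droplets of 50 to 500 UMIs. With 1 library a stage no test was possible. Members with at least 30 CPM and 30 UMIs in a class were to be named; values of the remaining 17 were chosen after they were seen. The members and lists were chosen with earlier results of these data known. Alternatives changed filters, normalization, clustering and thinning. Computation was checked on simulated data. The values of 1 member are not reported here.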

Additional observations from a re-analysis of the deposited data

Results flagged for a closer look

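Several members had stage ratios of opposite sign in 2 classes, each past 2-fold. With 1 library a stage the differences were not tested. From E12.5 to E13.5, Itga4 had a log2 ratio of 1.59 in mesenchyme-like and -1.04 in myogenic progenitor-like cells, a difference of 2.64. At the same step Itgb8 had 1.06 in Schwann- and neural crest-like and -1.14 in mesenchyme-like cells, a difference of 2.20. From E11.5 to E12.5, Itgb5 had -1.53 in myogenic progenitor-like cells, against 1.44 in Schwann- and neural crest-like cells (a difference of 2.97) and 2.79 in neural progenitor-like cells (a difference of 4.33). Lama5 had 1.09 in myogenic progenitor-like and -1.55 in mesenchyme-like cells, a difference of 2.65. Some of these ratios rest on an E12.5 level below that of droplets without a cell. This holds for Itgb5 in myogenic progenitor-like cells (droplets at 12.47 CPM). It also holds for Itga4 and Lama5 in mesenchyme-like cells (droplets at 3.39 and 0.363 CPM).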

How the results depend on the processing

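Of 1047 values of 108 ratios recomputed under 10 planned settings and 3 chosen after seeing the data, 1014 kept their direction and side of 2-fold or stayed within their interval, 26 moved and 7 reversed. The cause was not tested. Reversed were, with resolution doubled, Lamc3 in mesenchyme-like cells from E11.5 to E12.5 (0.79) and its lowest ratio to other cells (-1.16); with cells thinned, Itgb5 in myogenic progenitor-like cells from E12.5 to E13.5 (-0.083); in lateral plate-like cells, Itga6 (-0.70) and Itgb4 (-0.10) with the UMI minimum set per library, and Itgb4 (-0.56) with doublets kept; and Lamb2 in meningeal-like cells with members among the variable genes (-0.089).

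The 2 members lower in mesenchyme-like cells from E11.5 to E12.5 became 1 at 5% mitochondrial counts, at doubled resolution and when thinned. The 3 lower from E12.5 to E13.5 became 1 without meningeal-like cells. The epidermis-like count of 3 over both steps became 5 with the mean of cell CPM and 6 when thinned, and the macrophage-like count of 0 became 1 when thinned. With no UMI minimum, genes with a single UMI in each group were counted too. These counts were then 10 higher at the first mesenchyme step and 5 lower at the second. They were 15 in epidermis-like, 4 in macrophage-like, 20 in neural progenitor-like and 20 in Schwann- and neural crest-like cells. Pairs of member and mesenchymal class numbered 18. The share of all genes is not given under the changed settings. The counts here therefore show only how calls of members moved, and cannot be set against all genes. Some counts could not be run where a class was unnamed or under 50 cells. Over genes with at least 30 UMIs in each library, which set the median-of-ratios scaling, the median ratio was past 0.1 in either direction in mesenchyme-like (0.11) and neural progenitor-like cells (0.12) at the first step and in epidermis-like (-0.11) and macrophage-like cells (-0.10) at the second, among the classes whose stage counts are given. No paired analysis was possible because each stage has 1 library. Intervals are wide where a class has few cells, so differences within them were not detectable at this depth.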
